A study of Mus musculus with 10 samples.

Results

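Prrx1 lies on mouse chromosome 1 at 163245119 to 163315145, on the minus strand (assembly GRCm38.p6, whose coordinates are those of mm10), and the regions described here are the listed ATAC-seq regions whose bin lay within 5 Mb of that gene body. There were 33 such regions among 5327 in the authors' table of differential regions, chosen by position alone, and they are given by the nearest of the 87 protein-coding genes in this stretch. The animals studied were 4 mice labelled Prrx1(R1A)-/-, an allele whose sequence bounds the sources used here do not give, and they were set against 4 mice labelled control, with no further genotype. Both groups were 8 to 12 weeks old. Nuclei of the left and right atria of each mouse were pooled, and those stained for PCM1, a protein at the envelope of cardiomyocyte nuclei, were sorted. The Prrx1(R1A)-/- group had 4 libraries and the control group 6, because control animals 1 and 3 had a repeat library each, which were summed per animal. The question named by the series title is whether a noncoding region regulates Prrx1.

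Prrx1 is a transcription factor of the paired-related homeobox family, which binds TAAT-type core sequences and is best known for its part in limb and craniofacial mesenchyme and in fibroblasts. Noncoding variants at the human PRRX1 locus are associated with atrial fibrillation. In ATAC-seq a transposase inserts adapters into accessible DNA, so that reads pile up at open promoters and enhancers, and DNA that is absent from a genome gives no reads.

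3 stretches before start sites are printed, because they are what the listed bins touch or miss: the promoter of Prrx1 itself, that of Aldh9a1, the only protein-coding promoter of this stretch that lay wholly under a listed bin, and that of Rabgap1l, the gene with the most listed regions. Each is the 250 bases before a RefSeq start site of assembly GRCm38.p6, read in the direction of the gene. Capitals mark matches, on either strand, to an E-box (CANNTG), the homeodomain core (TAATTA), the GATA core (GATAA), the CCAAT box (named by its letters), the GC box (GGGCGG) or the TATA box (TATAAA).
Prrx1, chr1:163313651-163313900, minus strand: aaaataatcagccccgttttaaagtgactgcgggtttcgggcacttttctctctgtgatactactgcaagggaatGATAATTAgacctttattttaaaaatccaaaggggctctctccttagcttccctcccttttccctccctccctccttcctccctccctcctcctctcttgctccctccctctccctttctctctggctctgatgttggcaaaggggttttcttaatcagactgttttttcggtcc
Aldh9a1, chr1:167349741-167349990, plus strand: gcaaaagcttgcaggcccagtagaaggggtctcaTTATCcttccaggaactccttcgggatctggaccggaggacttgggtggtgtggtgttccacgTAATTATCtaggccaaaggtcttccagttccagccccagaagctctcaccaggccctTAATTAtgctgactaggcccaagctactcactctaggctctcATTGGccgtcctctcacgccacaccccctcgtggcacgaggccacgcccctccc
Rabgap1l, chr1:160792939-160793188, minus strand: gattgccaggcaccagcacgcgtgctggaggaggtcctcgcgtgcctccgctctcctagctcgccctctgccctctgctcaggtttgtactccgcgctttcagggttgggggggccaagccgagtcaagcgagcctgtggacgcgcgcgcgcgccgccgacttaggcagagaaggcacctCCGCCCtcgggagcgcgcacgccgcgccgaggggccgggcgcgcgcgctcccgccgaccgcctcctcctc
The Prrx1 window held 1 TAATTA, which overlapped 1 GATAA, and 47.6% of its bases were G or C. The Aldh9a1 window held 2 TAATTA, 2 GATAA, one of them overlapping a TAATTA, and 1 CCAAT, and the Rabgap1l window held 1 GC box in 73.2% G and C. Among all 32851 RefSeq windows of this length, 4.84% held a TAATTA, 22.6% a GATAA, 66.2% an E-box, 33.8% a CCAAT, 32.7% a GC box and 12.4% a TATAAA, and the median content of G and C was 52.4%. A match is a description of the letters and not a bound site.

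Almost all reads were lost at a pair of regions upstream of Prrx1 in Prrx1(R1A)-/- atria. The nearer region, at 163327001 to 163328000, had its bin 13.6 kb upstream of the Prrx1 start site and 12.1 kb from the end of the annotated gene body. The farther region, at 163337501 to 163339000, had its bin 24.1 kb upstream, and 9.5 kb lay between the regions. No listed bin lay inside Prrx1 or over the promoter printed above.

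In the nearer region, the bin held 3, 0, 0 and 2 reads in Prrx1(R1A)-/- animals 1 to 4, against 92, 24, 123 and 45 reads in control animals 1 to 4. Divided by each animal's size factor, which sets animals of a group on a common scale and the groups on the scale of the authors' own fold changes (the main scale below), these were 2.63, 0, 0 and 3.33 scaled reads in Prrx1(R1A)-/- animals and 48.6, 56.5, 57.3 and 56.6 in control animals. Every Prrx1(R1A)-/- animal was at or under 3 reads, about the upper 95% limit of the expected count when 0 reads are seen. Every control animal was far above 3 reads. The mean was 1.49 ± 1.74 scaled reads in Prrx1(R1A)-/- animals and 54.8 ± 4.14 in control animals (SD, n = 4 each), and the log2 change was -5.25 ± 0.51 (SE, edgeR adjusted p = 7.37e-09). The Prrx1(R1A)-/- level was 2.72% of the control level. With Prrx1(R1A)-/- animal 1, 2, 3 or 4 left out in turn, the log2 change was -5.97, -4.84, -4.82 and -5.72. The 5 reads of the group had come from animals 1 and 4.

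In the farther region, the bin held 2, 4, 5 and 2 reads in Prrx1(R1A)-/- animals, against 85, 16, 130 and 67 reads in control animals. The scaled reads were 1.75, 3.98, 4.73 and 3.33 in Prrx1(R1A)-/- animals and 44.9, 37.6, 60.6 and 84.3 in control animals. Control animals spread more widely here than at the nearer region, and no Prrx1(R1A)-/- animal came near the lowest of them. The log2 change was -4.03 ± 0.40 (SE, edgeR adjusted p = 1.24e-08). In the authors' deposited table the log2 changes were -2.94 (adjusted p = 3.50e-25) at the nearer region and -2.43 (5.11e-17) at the farther one, the pair of lowest values among all 5327 regions.

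In control atria both regions had signals in the middle of the listed range. The deposited control signal of the nearer region was above that of 56.9% of all listed regions, and that of the farther region above 55.7%. In Prrx1(R1A)-/- atria the deposited signal of the nearer region was the lowest of the table (rank 1) and that of the farther region ranked 3. In the plot of group signals, both lie below the band formed by the other lower regions.

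**Figure D1:**
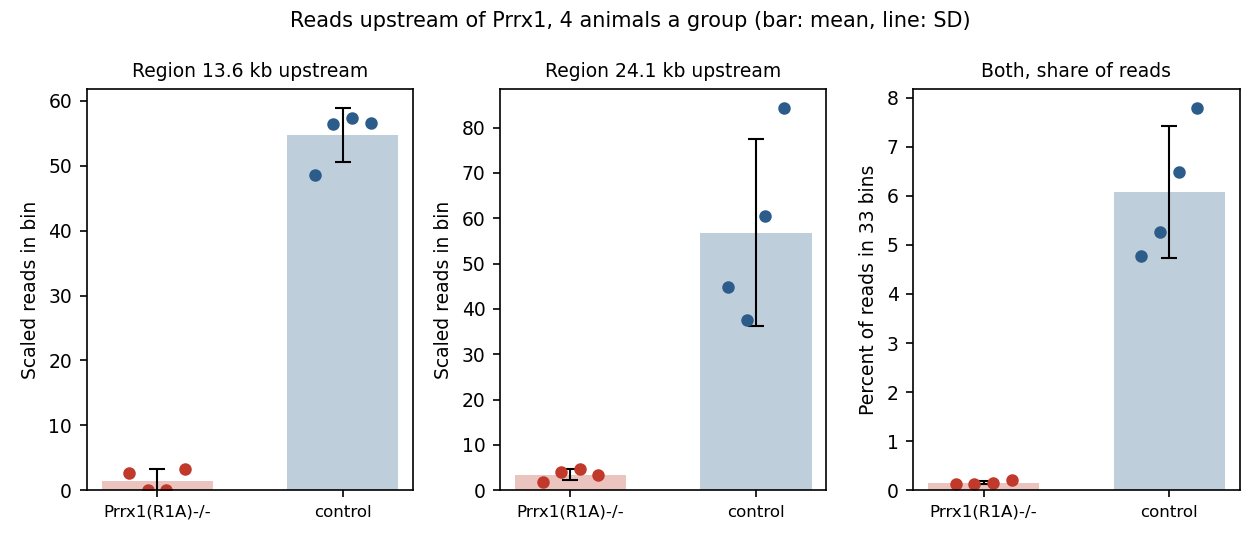
Scaled reads in the bins 13.6 kb and 24.1 kb upstream of Prrx1, and the share (percent) of reads in all 33 bins that fell in both together, in 4 Prrx1(R1A)-/- and 4 control animals. Points are animals, bars are means and lines are SD; the Prrx1(R1A)-/- shares lie at 0.128% to 0.209% and the control shares at 4.78% to 7.79%.

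The loss was also seen in a measure that needs no scale between the groups. Of all reads in the 33 bins, the pair upstream of Prrx1 held 5 of 3726 (0.134%, exact 95% interval 0.0436 to 0.313), 4 of 3131 (0.128%, 0.0348 to 0.327), 5 of 3522 (0.142%, 0.0461 to 0.331) and 4 of 1912 (0.209%, 0.0570 to 0.535) in Prrx1(R1A)-/- animals 1 to 4. In control animals 1 to 4 the pair held 177 of 3704 (4.78%, 4.11 to 5.52), 40 of 761 (5.26%, 3.78 to 7.09), 253 of 3904 (6.48%, 5.73 to 7.30) and 112 of 1438 (7.79%, 6.46 to 9.30). Most of the other bins in this total were higher in Prrx1(R1A)-/- animals, which by itself lowers the share there. The intervals are Clopper-Pearson and cover counting error only. The share averaged 0.153 ± 0.038% in Prrx1(R1A)-/- animals and 6.08 ± 1.35% in control animals (SD, n = 4 each), a difference of -5.92 percentage points (two-sided exact permutation p = 0.0286, the smallest that the 70 groupings allow). As a share of all listed bins of chromosome 1 the difference was -0.459 percentage points, and as a share of all listed bins -0.031, with the same exact permutation p of 0.0286. Summed over both bins, 18 reads in Prrx1(R1A)-/- animals stood against 582 in control animals, or 4.94 ± 1.19 scaled reads per Prrx1(R1A)-/- animal against 112 ± 22.6 per control animal (SD, n = 4 each). The log2 change of the sum was -4.53 ± 0.29 (SE, edgeR adjusted p = 5.13e-12). All listed regions had been selected by the authors for a difference between these libraries. No edgeR or permutation p-value given here, for this pair or for any other region, is therefore independent support. The edgeR adjustment ran over these selected regions only, so an adjusted p is no false discovery rate. With the bounds of the allele not given, deleted sequence and closed chromatin cannot be told apart, nor can fewer open nuclei and less open DNA in each.

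Away from Prrx1, nearly all listed regions of the neighbourhood carried more reads in Prrx1(R1A)-/- atria. Of the 33 regions 29 were higher and 4 lower in the authors' table, where 66.7% of all listed regions were higher and 33.3% lower. Without the pair upstream of Prrx1, 29 of 31 were higher (93.5%), beside 62.1% of the 346 regions on the rest of chromosome 1 (215 higher and 131 lower). These shares are descriptions, since neighbouring regions of 1 animal are not independent. The scale taken from the authors' fold changes calls 29 higher and 4 lower again, by construction, with 66.7% higher and 33.3% lower over the 5326 regions tested in edgeR. On that scale log2 changes were 0.59 higher than with TMM factors. With TMM factors 10 of the 33 regions, all of them among the 29, were called higher and the 4 lower ones lower. The whole table had 3551 higher and 1776 lower regions by the authors' call. There TMM factors called 988 regions higher and 1776 lower (18.5% and 33.3% of all regions).

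The median edgeR log2 change was 1.00 in the neighbourhood and 0.81 over all listed regions (0.41 and 0.22 with TMM factors). Among higher regions only, the median deposited log2 change was 0.83 in the neighbourhood and 0.81 over all. All 4 Prrx1(R1A)-/- animals lay above all 4 control animals at 23 of the 29 higher regions, and below them at all 4 lower regions. The 6 higher regions where the groups overlapped were 2 near Rabgap1l, 2 in Uck2 and those in Nme7 and at Aldh9a1. Over the whole table, animals separated upward at 3217 of the 3551 higher regions, a larger share than the 23 of 29 here. They separated downward at 1577 of the 1776 lower regions. These are 60.4% and 29.6% of all listed regions.

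By distance from Prrx1, the near-complete loss lay in the nearest class alone. Within 0.1 Mb of the gene lay the 2 lower regions described above. From 0.1 to 1 Mb there were 3 regions, all higher, with a median log2 change of 1.14. From 1 to 2 Mb there were 4 higher regions and 1 lower (median 0.86), from 2 to 3 Mb 13 higher and 1 lower (0.85), from 3 to 4 Mb 7 higher (1.17) and from 4 to 5 Mb 2 higher (0.90). The medians of the classes beyond 0.1 Mb lay between 0.85 and 1.17 and did not rise or fall steadily with distance. On the lower-coordinate side, downstream of Prrx1, 12 of 13 regions were higher, and on the higher-coordinate side 17 of 20.

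The listed regions lay 3.28 per Mb in the neighbourhood and 1.98 per Mb along chromosome 1 as a whole. No region was listed in the 817 kb below the nearer upstream region, a stretch that includes the whole gene. None was listed in the 897 kb above the farther one. The widest gap between regions of the neighbourhood, 1297 kb, lay elsewhere, between those near Prdx6 and Eef1aknmt. Walking up the chromosome, 11 higher regions were followed by 1 lower, 1 higher, the 2 lower ones upstream of Prrx1, 3 higher, 1 lower and 14 higher. The regions at either margin, near Cop1 at 4.12 Mb below Prrx1, in Uck2 at 3.96 Mb and at Aldh9a1 at 4.03 Mb above it, were higher, with log2 changes of 1.00, 1.36 and 0.79, those near Cop1 and at Aldh9a1 not being called with TMM factors (0.41 and 0.19). The first listed regions beyond 5 Mb were also higher in the authors' deposited table, in Rasal2 at 5.85 Mb (log2 change 0.55), in Tor3a at 6.58 Mb (0.90) and in Nos1ap at 7.07 Mb (0.89).

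**Figure D2:**
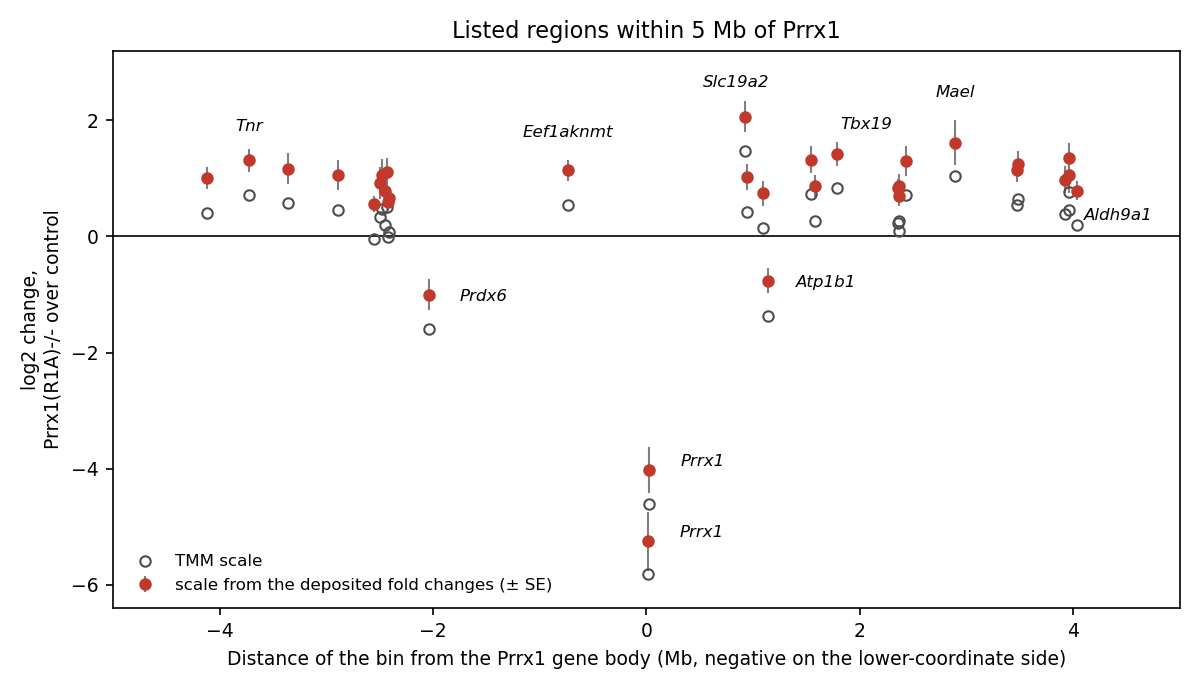
Log2 change of each of the 33 listed regions, Prrx1(R1A)-/- over control, against the distance of its bin from the Prrx1 gene body in Mb. Filled points are edgeR values on the scale taken from the deposited fold changes with their SE, open points use TMM factors; the pair upstream of Prrx1 lies at -5.25 and -4.03, and 29 filled points lie above 0.

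The neighbour with the largest gain was Slc19a2, which encodes a thiamine transporter. A region at 164235751 to 164236750, 12.5 kb upstream of the Slc19a2 start and 0.92 Mb from Prrx1, had 78.8, 85.5, 53.9 and 50 scaled reads in Prrx1(R1A)-/- animals, against 19.0, 9.41, 20.5 and 7.55 in control animals. The lowest Prrx1(R1A)-/- animal was above the highest control animal by more than the range within the control group. Its mean was 67.1 ± 17.7 scaled reads in Prrx1(R1A)-/- animals and 14.1 ± 6.58 in control animals (SD, n = 4 each), a 4.19-fold change (log2 2.07 ± 0.27 SE, edgeR adjusted p = 9.95e-07), and 1.47 on the log2 scale with TMM factors. This was a weak site in control atria, with a deposited control signal above only 4.22% of listed regions. A further region inside Slc19a2 was higher by 1.02 ± 0.22 log2, and was not called with TMM factors (0.43).

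The third region within 1 Mb lay on the other side of Prrx1, at 162508751 to 162510000, between Eef1aknmt, a methyltransferase of the elongation factor eEF1A, and Dnm3, a dynamin of membrane scission. It lay 23.9 kb from Eef1aknmt and 31.2 kb upstream of the Dnm3 start. Its scaled reads were 194, 171, 247 and 115 in Prrx1(R1A)-/- animals and 86.0, 87.0, 91.4 and 66.7 in control animals, without overlap, and the log2 change was 1.14 ± 0.18 (SE, edgeR adjusted p = 1.16e-05). Dnm3 hosts the noncoding RNA Dnm3os, which carries the microRNAs Mir199a-2 and Mir214. No listed region was at this cluster, whose genes were 284 to 291 kb from the nearest bin.

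Among the transcription factor genes of the neighbourhood, Prrx1 and Tbx19 had listed regions and 6 others in the list did not. Tbx19, a T-box factor known from pituitary corticotrophs, had a region at 165104501 to 165105500, 32.6 kb from the gene. Its scaled reads were 93.7, 107, 121 and 170 in Prrx1(R1A)-/- animals and 48.0, 30.6, 45.2 and 50.3 in control animals. The groups were separate, and the log2 change was 1.43 ± 0.20 (SE, edgeR adjusted p = 2.65e-06), or 0.83 with TMM factors.

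The pump gene Atp1b1, which encodes the beta subunit of the sodium-potassium ATPase, held one of the few lower regions, at 164454251 to 164454750, 3.6 kb downstream of its start. Its scaled reads were 41.2, 39.8, 35.9 and 30.0 in Prrx1(R1A)-/- animals and 72.8, 51.8, 69.5 and 51.6 in control animals. The log2 change was -0.77 ± 0.22 (SE, edgeR adjusted p = 0.00152), -1.36 with TMM factors and -0.68 in the authors' deposited table (adjusted p = 0.0429). The remaining lower region lay at 161211001 to 161211500, 28.6 kb from Prdx6, which encodes a peroxiredoxin. It had 38.5, 29.8, 13.2 and 25.0 scaled reads in Prrx1(R1A)-/- animals and 51.2, 44.7, 51.3 and 68.0 in control animals. The groups did not overlap, and reads decreased by 1.00 ± 0.26 on the log2 scale (SE, edgeR adjusted p = 0.000878), with a change of -1.60 with TMM factors. Both losses were smaller than those upstream of Prrx1.

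Genes of the matrix list with regions were Tnr, which encodes tenascin-R, and Dpt, which encodes dermatopontin and marks fibroblasts. Their 3 regions were all higher, and the other genes of the list of 5 had none. The region at 159517001 to 159518500, 6.02 kb upstream of the Tnr start, had 105, 111, 116 and 93.3 scaled reads in Prrx1(R1A)-/- animals and 44.9, 47.1, 32.2 and 54.1 in control animals, and the log2 change was 1.31 ± 0.20 (SE, edgeR adjusted p = 4.42e-06). The region 31.5 kb from Dpt had 74.5, 77.5, 94.6 and 132 scaled reads in Prrx1(R1A)-/- animals and 50.1, 18.8, 30.8 and 40.3 in control animals, and its log2 change was 1.32 ± 0.23 (SE, edgeR adjusted p = 3.16e-05). Both were also called with TMM factors. The second Tnr region, inside the gene, was higher by 1.17 ± 0.27 and was not called with TMM factors (0.58).

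Rabgap1l, which encodes a Rab GTPase-activating protein of membrane traffic, was the nearest gene to 8 listed regions, more than any other gene of the neighbourhood. It was the only one of 9 genes in the membrane traffic list that was the nearest gene to a region. Dnm3, also in that list, had the nearest start to the region 31.2 kb upstream of it, which was assigned to Eef1aknmt. All 8 were higher on the main scale, with log2 changes of 0.56 to 1.11, and with TMM factors none was called and the regions at 160693001 and 160825251 turned slightly negative (-0.04 and -0.003). The region at 160791751 to 160792750, whose bin lay 0.438 kb inside the gene from the promoter printed above, had 272, 234, 246 and 233 scaled reads in Prrx1(R1A)-/- animals and 152, 144, 119 and 161 in control animals. The groups did not overlap there, with an edgeR log2 change of 0.79 ± 0.14 (SE, adjusted p = 2.81e-05). The summed scaled reads of the 8 regions ranged from 987 to 1152 in Prrx1(R1A)-/- animals and from 588 to 720 in control animals.

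Among the 8 metabolic and redox genes listed for the neighbourhood, Aldh9a1, Nme7, Prdx6 and Uck2 had regions, 5 higher and 1 lower. Aldh9a1 encodes an aldehyde dehydrogenase of carnitine synthesis, and the region over its promoter, at 167349501 to 167350250, had 209, 211, 232 and 143 scaled reads in Prrx1(R1A)-/- animals, against 125, 146, 99.8 and 103 in control animals. Prrx1(R1A)-/- animal 4 was slightly below the highest control animal, so the groups overlapped, and the log2 change was 0.79 ± 0.16 (SE, edgeR adjusted p = 0.00013), or 0.19 and not called with TMM factors. Uck2, a uridine-cytidine kinase, held 3 regions with log2 changes of 0.98, 1.05 and 1.36, of which the first 2 were not called with TMM factors (0.39 and 0.46). The region in Nme7, a nucleoside diphosphate kinase family gene, was higher by 0.74 ± 0.22, and was not called with TMM factors (0.14).

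The remaining regions were all higher on the main scale. Rcsd1, which encodes a CapZ-interacting protein, held 3 regions with log2 changes of 0.70 to 0.87, of which none was called with TMM factors. Creg1, a secreted glycoprotein gene, had a region 12.5 kb upstream with a log2 change of 1.31 ± 0.26. Fmo9, alone of 6 flavin monooxygenase genes in its list, was the nearest gene to 2 regions, at 112 and 115 kb, with log2 changes of 1.14 and 1.25. The region 31.9 kb from Xcl1, which encodes a lymphocyte chemokine and was the only one of 5 immune genes listed with a region, was higher by 0.86 ± 0.19 but not called with TMM factors (0.27), and its bin lay over the start of the noncoding RNA gene Gm32652. Mael, a gene of the germ-line piRNA pathway, held the weakest control site, with 56.9, 39.8, 32.2 and 56.7 scaled reads in Prrx1(R1A)-/- animals and 30.6, 9.41, 5.13 and 10.1 in control animals. Its log2 change was 1.62 ± 0.39 (SE, edgeR adjusted p = 0.000488), and 2.65 without control animal 1, whose value was above the other control animals. The change was 1.22 without control animal 3 and 1.03 with TMM factors. Control animals 2, 3 and 4 held only 4, 11 and 8 raw reads in this bin. The list of adhesion and clotting genes, including Sele, Selp and F5, had no region.

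Summed over the 31 regions other than those upstream of Prrx1, scaled reads were 3260, 3108, 3327 and 3180 in Prrx1(R1A)-/- animals and 1862, 1696, 1702 and 1669 in control animals. As a share of all reads in listed bins, which uses no scale factor, the 31 bins held 0.713, 0.681, 0.724 and 0.701% in Prrx1(R1A)-/- animals and 0.541, 0.474, 0.496 and 0.482% in control animals. The groups did not overlap on either measure. Both are descriptions, since the sums are made of regions selected for their difference.

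**Figure D3:**
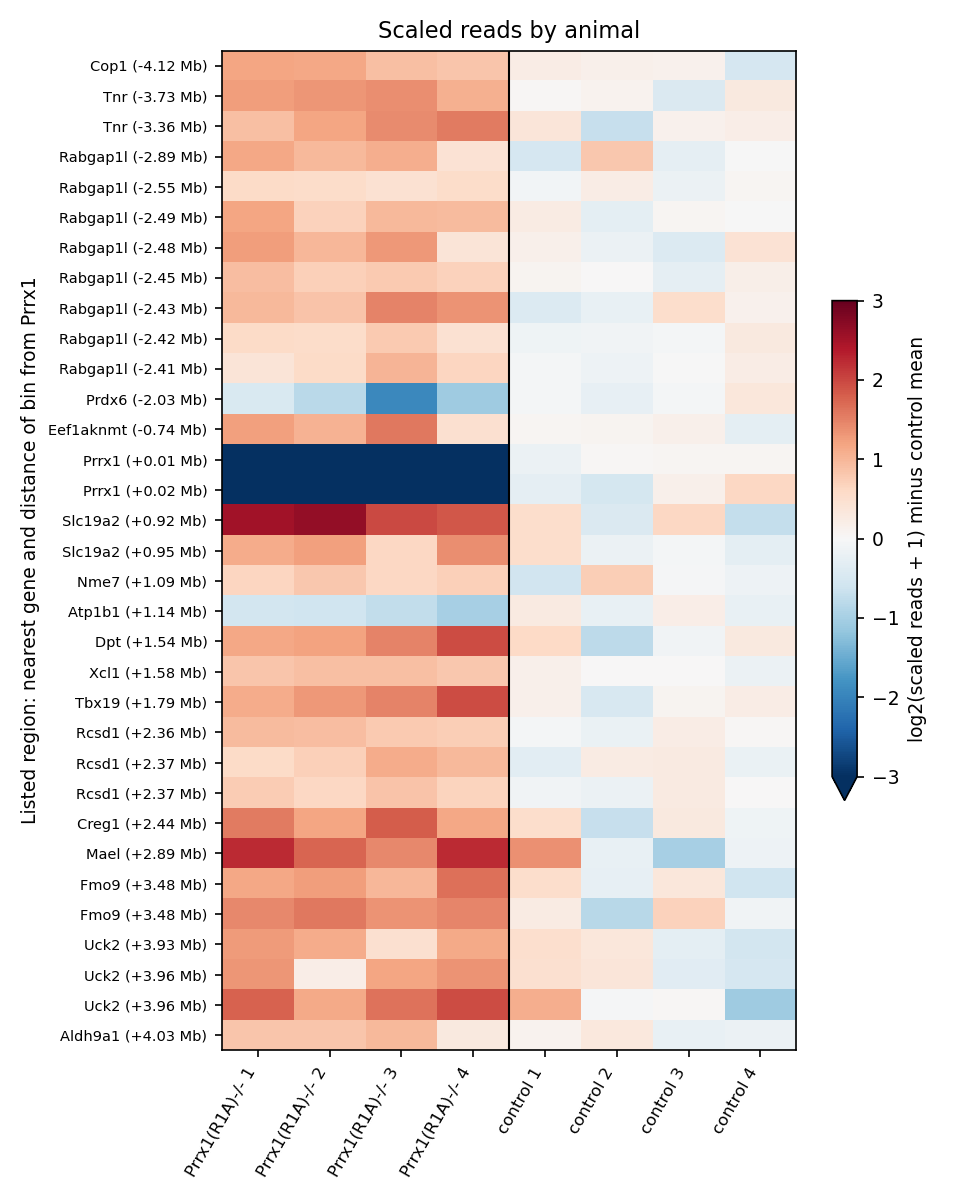
Log2(scaled reads + 1) minus the control mean for each of the 33 regions, in order along chromosome 1 from top to bottom, in 4 Prrx1(R1A)-/- animals (left) and 4 control animals (right). Only the rows of Prrx1, Prdx6 and Atp1b1 are blue in all Prrx1(R1A)-/- animals, and the colour scale ends at -3, below which both Prrx1 rows lie.

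The rule used position alone, and width and place relative to genes can be set beside those of the whole table. The median width of the 33 regions was 750 bp, as over all listed regions, and the widest had 1500 bp. The bins of 17 regions (51.5%) lay inside a protein-coding gene, beside 60.9% over all, and whether in exons or introns was not analysed here. 2 bins (6.06%) lay within 1 kb of the RefSeq start of a protein-coding gene, those at Rabgap1l and Aldh9a1, beside 6.51% of all listed regions, and the median distance to such a start was 35.8 kb, beside 39.2 kb. The 33 regions were nearest to 18 of the 87 protein-coding genes of this stretch, and all listed regions to 3157 of 21900. Nearness says nothing of which gene a region acts on.

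**Figure D4:**
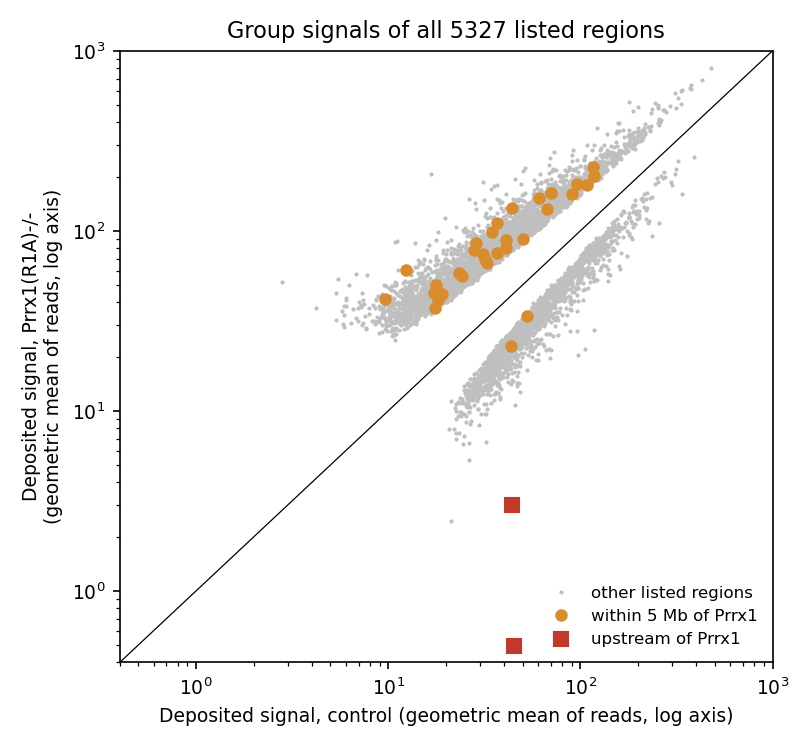
Deposited group signal (geometric mean of raw reads) in Prrx1(R1A)-/- against control libraries for all 5327 listed regions, on log axes, with the line of equal signal. The 31 neighbourhood regions in orange lie within the 2 bands of listed regions, and the pair upstream of Prrx1 in red lies far below the lower band.

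In the whole table, 3157 of 21900 protein-coding genes were nearest to a listed region, at any distance. Of 23 genes listed as paired-related homeobox genes, partners or targets, 6 were nearest to 8 listed regions. Of these regions 3 were higher and 5 lower, beside 66.7% higher and 33.3% lower over all listed regions. Higher regions included those nearest to Sox9 (log2 change 1.78 ± 0.39), a transcription factor gene of cartilage and valve development, and Hand2 (1.15 ± 0.17), a transcription factor gene of heart development. They lay 171 kb from Sox9 and 107 kb from Hand2. Lower regions were the pair upstream of Prrx1, 2 nearest to Tbx5, one of which lay inside the gene and changed by -0.74 ± 0.18, and 1 nearest to Meis1 (-1.16 ± 0.32), 297 kb from it. The errors are SE of edgeR. Other regions were ranked by how alike their scaled reads varied to the bin nearest to Prrx1 over the 8 animals. The top regions had as nearest genes Ngdn (Pearson r 0.988 of log2 values), Unc45b (0.986), Fgf12 (0.985), Usp25 (0.984) and Sik1 (0.983). They lay inside Unc45b and Fgf12, 5.95 kb from Ngdn, 52.7 kb from Sik1 and 377 kb from Usp25. Each was lower in Prrx1(R1A)-/- animals, with log2 changes from -1.63 to -0.75. The farther region upstream of Prrx1 had r 0.906 and ranked 324, and 359 regions passed 0.9, since any region that separates the groups correlates highly. These values carry no test.

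The libraries held 151976 to 521778 reads in listed bins, which is not their depth, and per animal 272223 to 521778 in Prrx1(R1A)-/- animals and 151976 to 736607 in control animals. The table holds only regions that the authors called. The sorted cell type could thus be checked only through listed regions whose nearest gene was a marker, at any distance. The Ryr2 region with the lowest authors' adjusted p lay 565 kb from the gene. The regions of Cdh5 and Kdr lay 228 and 55.8 kb from theirs, and those of Npr3 and Csf1r lay inside the gene. Over all listed regions 66.7% were higher and 33.3% lower, and 3157 of 21900 protein-coding genes were nearest to a region. Of 10 cardiomyocyte markers 6 had listed regions, 52 in all, 21 higher and 31 lower. All 14 Ttn regions were higher, all 8 Actn2 regions were lower, and Ryr2 had 6 higher and 15 lower. The summed scaled reads of the 52 regions were 3632 to 4123 in Prrx1(R1A)-/- animals and 3945 to 4717 in control animals. Of 10 fibroblast markers only Dpt and Prrx1 had any, Prrx1 through the pair described above, with sums of 78.8 to 138 in Prrx1(R1A)-/- animals and 113 to 181 in control animals. Endothelial markers (3 of 8 genes) had 3 lower regions, summing to 67.5 to 98.3 in Prrx1(R1A)-/- animals and 152 to 194 in control animals. Smooth muscle and pericyte markers (3 of 6 genes) had 4 higher and 2 lower regions, with 422 to 449 in Prrx1(R1A)-/- animals and 342 to 428 in control animals. The immune marker Csf1r (1 of 6) had 1 higher region, with 36.9 to 59.6 in Prrx1(R1A)-/- animals and 13.5 to 25.9 in control animals, and the neural marker Snap25 (1 of 4) had 1, with 117 to 204 in Prrx1(R1A)-/- animals and 94.0 to 129 in control animals. A marker without a listed region has no level in this table. The part of other cell types in the changes near Prrx1 was not tested.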

How the data were processed

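The data were ATAC-seq read counts of sorted atrial cardiomyocyte nuclei, 4 Prrx1(R1A)-/- and 4 control animals, from 10 libraries. Per the labels' protocols, libraries were made with an Illumina Tagment enzyme and read as pairs of 150 bp. The tools BWA, bedtools and DESeq2 and the build mm10 are named, with no version or role, per the submitters' processing notes. Duplicate removal, the shift for the transposase cut and the authors' test design were not given in the sources used here. Per the file headers, the authors' deposited table gives raw read counts of 1 leading bin of 500 bp per merged region. The authors' deposited values were handled as estimated counts, since 17 cells hold 0.1 where no cell holds 0, and were rounded to whole numbers. The log2 fold changes deposited by the authors run control over Prrx1(R1A)-/- and were turned in sign. The deposited adjusted p-values reach 0.04999. The deposited group signal is the geometric mean of raw counts.

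Repeat libraries, whose counts differed beyond sampling noise (chi-square over its degrees of freedom 2.11 and 1.79), were summed per animal. Bins were assigned to RefSeq genes of GRCm38.p6 and distances are from the bin. Counts were tested with edgeR 4.0.16 under R 4.3.3 (glmQLFit, glmQLFTest, no block, Benjamini-Hochberg at 0.05); filterByExpr removed 1 region, none near Prrx1. Size factors were median ratios within a group, and the offset between groups, 0.142 log2, came from regressing the deposited log2 fold change on the log2 ratio of group signals over 1432 regions with both signals at or above 50, because TMM presumes mostly unchanged regions and the table holds only called ones. TMM, DESeq2 1.42.0, other filters, scales, windows, denominators and left-out animals were tried. The edgeR step was tested on simulated data. Nothing in the labels says whether animals shared litters, so p-values measure the spread between these animals. The members and lists were chosen with earlier results of these data known. Named regions were those within 1 Mb of Prrx1, the 12 largest changes per direction, and those near listed genes. One listed gene is not reported here. 3 listed symbols (Slc9c2, Mettl13, Styxl2) were not matched in the RefSeq table.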

Additional observations from a re-analysis of the deposited data

Results flagged for a closer look

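Each region, and the share at the pair upstream of Prrx1, was checked in each group of 4 animals for an animal whose gap to its nearest neighbour exceeded 0.829 of the group's range. This picked out 4 of 68 groups, about what chance gives (1 in 20). At the nearer region upstream of Prrx1, control animal 1 had 48.6 scaled reads, below the 56.5 to 57.3 of the other control animals and far above every Prrx1(R1A)-/- animal. At the region near Cop1, control animal 4 had 32.7 scaled reads, below the 51.3 to 54.9 of the others. At the Rabgap1l region starting at 160693001, Prrx1(R1A)-/- animal 3 had 184 scaled reads, below the 197 to 199 of the others. At the Rabgap1l region starting at 160825251, control animal 4 had 179 scaled reads, above the 132 to 138 of the others. On the main scale, each of these regions was still called without the animal concerned.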

How the results depend on the processing

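The loss upstream of Prrx1 kept its direction and its call under every setting of scale, test, filter, repeat library, block and left-out animal, with a log2 change of -4.65 to -4.41 when 1 animal was left out. The mix of directions depended on the scale: 10 regions were called higher with TMM or DESeq2 size factors, against 29, with median log2 changes of 0.41 for both, and the median was 0.61 with total reads. The Rabgap1l regions at 160693001 and 160825251 reversed, to -0.036 and -0.0033 with TMM and to -0.039 and -0.0057 with DESeq2 size factors. With these factors 17 further regions of the 33 lost their call beside those 2, with total reads 6 lost it, and with the other fits of all animals or of fewer, none did. Narrower windows left 17 regions higher within 2.5 Mb (median 0.86) and 3 higher and 2 lower within 1 Mb, and an authors' adjusted p under 0.01 left 17 higher and 2 lower (median 1.14); fewer regions enter by construction. Same-numbered animals were not paired in the main test. Correlations of their deviations were 0.264, 0.041, -0.036 and -0.00079, against -0.152 to 0.080 for differently numbered animals, so the first pair stood highest. With a replicate block edgeR called 29 higher and 4 lower. Sign flips over the pairs gave the same difference in share, -5.92 points, at an exact p of 0.125, the smallest that 4 pairs allow. Reads of 3 or fewer at the nearer bin limit how far below control its level can be placed.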
